A study of Mus musculus with 20 samples.

Results

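The comparison described here set cells given the N-terminal fragment of p65 against cells given whole p65. It used 6 of the series' 20 arrays, chosen by their titles: 3 arrays titled 1-361 (N-fragment 1 to 3) and 3 arrays titled WT (wild type 1 to 3). All cells were of a murine B16 line that carries Bcr-Abl, an activated tyrosine kinase; B16 is a melanoma line. The N-fragment group had received a plasmid for residues 1 to 361 of murine p65/RelA, and the wild-type group a plasmid for the full-length protein. A void plasmid group, titled Blanck (3 arrays), is quoted as the background level. The labels give the strain as mouse C3H eOuJ, and how that label relates to the B16 line was not examined. The promoter of the plasmids, the time after transfection, whether the transfected cells were pools or single clones, and how replicates were made are not given in the sources used here. Each p-value therefore speaks to a spread between arrays alone, which may be technical. That spread was pooled over all 20 arrays of the series, not only the 6 compared.

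p65, the product of Rela, is a subunit of the transcription factor NF-kB. Its N-terminal part holds the Rel homology domain, which binds DNA, the other subunits and the inhibitory IkB proteins, and its C-terminal part holds the transactivation domains that raise transcription. Cleavage after aspartate 361 parts the domains, and the series compares whole p65 with its non-cleavable form and with the resulting fragments. NF-kB switches on its own inhibitors (IkB alpha, A20) as well as survival and chemokine genes, so a pool of known target genes can be read for each form of the protein.

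The arrays were 1-colour Agilent arrays. Levels below are log2 processed signal relative to the 75th percentile of the same array, so 0 is the 75th percentile of all non-control spots and 1 unit is a 2-fold step. Differences are N-fragment minus wild type on that log2 scale, ± the standard error (SE) of the fit, and folds are given without the log. A gene was called changed at a Benjamini-Hochberg adjusted p under 0.05 in limma, over 18738 genes. Of the probes, 54.4 to 56.3% were well above background on the wild-type arrays and 50.6 to 54.1% on the N-fragment arrays, and no spot was saturated. Arrays of a group correlated at r = 0.9894 to 0.9912 (wild type) and 0.9857 to 0.991 (N-fragment), and across groups at 0.9715 to 0.9813. N-fragment 1 stood apart from its group: its median absolute log2 difference was 0.194 from N-fragment 2 and 0.234 from N-fragment 3, against 0.0947 between those 2.

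Between the fragment and the whole protein, 5170 of 18738 genes changed (27.6%), 2536 higher with the N-fragment (13.5%) and 2634 lower (14.1%). Counts of called list members below are to be read beside these shares. All list members have gene symbols, and of the 13823 tested genes with a symbol 2197 were called higher and 2203 lower. That is a larger share than over all genes, so a list near 27.6% called is not above the named genes. At least 2-fold changes numbered 1104 (5.89%), 535 higher (2.86%) and 569 lower (3.04%). The 3 arrays of each group did not overlap for 8996 genes (48.0%), and the median difference over all genes was -0.04. Without N-fragment 1 the calls numbered 4386, 2028 higher and 2358 lower, and 1053 of them were at least 2-fold. The values as deposited, without scaling between arrays, gave 1556 higher and 2422 lower, so that 39.1% of calls were higher against 49.1% with scaling.

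**Figure D1:**
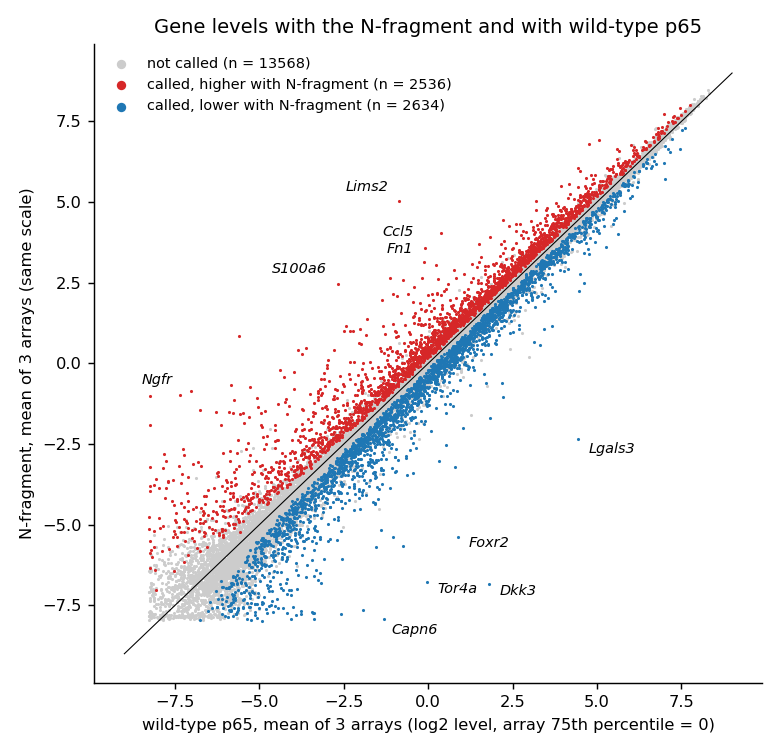
Each point is a gene, with its mean log2 level on the 3 wild-type arrays (horizontal) and on the 3 N-fragment arrays (vertical), both relative to the array's 75th percentile; red and blue points were called higher (n = 2536) and lower (n = 2634) with the N-fragment, grey points were not called (n = 13568), and the line marks equal levels. Lims2 and S100a6 lie far above the line and Lgals3, Dkk3 and Foxr2 far below it.

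Rela itself was read first, since it is the gene that the constructs encode. It stood at 4.14, 4.15 and 4.14 with wild-type p65 and at 4.39, 4.58 and 4.29 with the N-fragment, beside 4.10, 4.04 and 4.08 with void plasmid. The N-fragment arrays lay above all wild-type arrays, and the difference was 0.28 ± 0.07 (1.21-fold, adjusted p = 0.0056). The wild-type arrays lay 0.07 ± 0.07 from void (adjusted p = 0.592), so the Rela probe was not called higher with the whole protein; which part of the transcript the probe reads was not examined. The call was lost on unscaled values (0.22, adjusted p = 0.137) and in a fit of only these 6 arrays (adjusted p = 0.0692).

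Of the 5 NF-kB subunit genes 4 were measured; Rela rose, Relb fell, and Nfkb1 and Nfkb2 were not called. Relb, the partner of p52 in non-canonical NF-kB, stood at 0.90, 1.03 and 0.97 with wild-type p65 and at 0.31, 0.25 and 0.07 with the N-fragment. Every N-fragment array was below every wild-type array and above every void array (-0.21 to -0.08), and the fall was 0.76 ± 0.11 on the log2 scale (adjusted p = 7.4e-05). Nfkb2, which encodes the p52 precursor, stood at 1.06 to 1.15 with wild-type p65 and 1.10 to 1.71 with the N-fragment, overlapping ranges (0.25 ± 0.19, adjusted p = 0.354). Nfkb1 differed by 0.38 ± 0.16 (adjusted p = 0.101), and its 2 probes pointed opposite ways.

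The feedback inhibitors split. Of 13 measured genes 3 rose and 3 fell, with a median of -0.16; without N-fragment 1, 1 rose and 3 fell. Bcl3, an atypical IkB protein that works with p50 and p52 in the nucleus, fell by 1.48 ± 0.16 on the log2 scale (adjusted p = 3.7e-06): it stood at -1.52, -1.65 and -1.68 with wild-type p65, and at -2.98, -3.22 and -3.09 with the N-fragment, near void (-3.09 to -2.83). Tnfaip3, which encodes the ubiquitin-editing enzyme A20, stood at -1.83, -1.99 and -1.94 with wild-type p65 and at -2.26, -2.59 and -2.56 with the N-fragment. Those levels were both far from void (-4.55 to -4.49). A20 was thus called lower with the fragment (-0.55 ± 0.14, adjusted p = 0.0093), a call lost after quantile normalization (-0.47, adjusted p = 0.0545) and with normexp background correction and quantile normalization together (-0.27, adjusted p = 0.0572). Tnip1, an A20-binding protein, fell by 0.42 ± 0.12, from 4.23 to 4.25 down to 3.75 to 3.96 (adjusted p = 0.0177), but not without N-fragment 2 (adjusted p = 0.0647), N-fragment 3 (0.0591) or wild type 1 (0.0509).

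Cyld, a deubiquitinase that restrains NF-kB signalling, rose by 0.50 ± 0.10 (adjusted p = 0.00094), from -0.31 to -0.24 up to 0.16 to 0.30. Tnip2 rose by 0.43 ± 0.12 (adjusted p = 0.0114), though not without N-fragment 1 (0.32, adjusted p = 0.0665). Nfkbia, the gene of IkB alpha and a direct NF-kB target, stood at 2.44, 2.25 and 2.18 with wild-type p65 and at 2.73, 2.56 and 2.59 with the N-fragment, both above void (1.41 to 1.57). Its difference of 0.33 ± 0.11 (adjusted p = 0.034) lost its call without N-fragment 1 (adjusted p = 0.124), N-fragment 3 (0.0573), wild type 2 (0.0999) or wild type 3 (0.124), and with slide as a block (0.30, adjusted p = 0.0922). It was also lost on unscaled values (adjusted p = 0.108), without the filter (0.0729), in a fit of only these 6 arrays (0.0515) and with normexp and quantile normalization together (0.121). Nfkbib, Nfkbie, Nfkbiz, Nfkbid, Otud7b, Zc3h12a and N4bp1 were not called, with differences from -0.74 (Nfkbid) to 0.22 (Nfkbib).

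The promoters of these genes were searched for the NF-kB consensus site on both strands in RefSeq windows from 250 bases before to 50 after a start (build GRCm38.p6). A match is only a match of letters. At least 1 match lay in 8.46% of 32851 windows, in 12.0% of the 11034 tested genes with a window, in 12.2% of the called genes that rose and in 13.6% of those that fell. Of 11 feedback genes with a window 7 held it, among them all 3 that fell (Bcl3, Tnfaip3, Tnip1) and 2 of the 3 that rose (Nfkbia, Cyld). Survival genes held it in 4 of 12 with a window, among them 1 of the 5 that rose (Bcl2l1). Chemokine and cytokine genes held it in 4 of 5 with a window, and Ccl5 had no window. Below are the 250 bases before the start of 4 target genes that moved in different directions, 2 feedback inhibitors and 2 chemokines, with the consensus matches in capitals. They lie at chr12:55492648-55492897 (Nfkbia, minus strand), chr10:19015411-19015660 (Tnfaip3, minus strand), chr5:92348890-92349139 (Cxcl10, minus strand) and chr5:90890995-90891244 (Cxcl1, plus strand), all in GRCm38.p6.
Nfkbia: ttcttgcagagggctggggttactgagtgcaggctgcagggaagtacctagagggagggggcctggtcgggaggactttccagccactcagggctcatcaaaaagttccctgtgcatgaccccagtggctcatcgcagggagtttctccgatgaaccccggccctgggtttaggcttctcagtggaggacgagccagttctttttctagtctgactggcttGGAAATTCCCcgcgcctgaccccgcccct
Tnfaip3: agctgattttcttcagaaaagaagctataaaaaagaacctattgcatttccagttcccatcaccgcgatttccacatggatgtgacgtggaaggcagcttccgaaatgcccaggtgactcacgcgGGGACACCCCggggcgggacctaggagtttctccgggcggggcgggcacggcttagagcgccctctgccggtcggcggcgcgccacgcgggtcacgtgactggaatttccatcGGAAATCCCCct
Cxcl10: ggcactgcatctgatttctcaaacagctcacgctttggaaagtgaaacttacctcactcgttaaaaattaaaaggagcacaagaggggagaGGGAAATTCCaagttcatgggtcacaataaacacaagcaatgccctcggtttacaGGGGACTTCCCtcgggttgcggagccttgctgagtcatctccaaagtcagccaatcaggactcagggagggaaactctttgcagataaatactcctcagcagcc
Cxcl1: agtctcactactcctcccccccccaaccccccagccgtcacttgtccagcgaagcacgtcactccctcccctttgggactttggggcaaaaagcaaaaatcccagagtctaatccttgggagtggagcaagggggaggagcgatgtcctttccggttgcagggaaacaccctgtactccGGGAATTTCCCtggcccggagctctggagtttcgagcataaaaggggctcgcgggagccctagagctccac

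Among the chemokines and cytokines 9 of 25 listed genes were measured; 3 rose, 3 fell and 3 were not called. Ccl5, a chemokine that draws T cells and monocytes, showed the largest rise: -0.04, -0.08 and -0.20 with wild-type p65 against 3.81, 3.52 and 3.37 with the N-fragment. Wild type overlapped void (-0.16 to 0.15), and the N-fragment arrays were all far above both, a rise of 3.67 ± 0.17 (12.7-fold, adjusted p = 2.2e-10). Cx3cl1, the membrane-bound chemokine fractalkine, rose by 1.14 ± 0.15 (2.20-fold, adjusted p = 2.8e-05), from -3.57 to -3.48 up to -2.48 to -2.22. Cxcl10, an interferon- and NF-kB-induced chemokine that draws T cells, stood at 2.17, 2.20 and 2.03 with wild-type p65 and at 2.52, 2.62 and 2.49 with the N-fragment, both above void (0.37 to 0.74). The difference of 0.41 ± 0.08 passed (adjusted p = 0.0013), but not on unscaled values (0.35, adjusted p = 0.0556).

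Cxcl1, a neutrophil chemokine, went the other way. It stood at -3.04, -3.33 and -3.39 with wild-type p65 and was above background on no N-fragment or void array, so the N-fragment level was lower by at least 5.34-fold (adjusted p = 4.0e-05). Il15, which supports T and natural killer cells, fell at least 1.32-fold (adjusted p = 4.9e-07) and Ccl2, a monocyte chemokine, at least 1.01-fold (adjusted p = 0.00045). Those bounds are small because both genes were dim with wild-type p65, at -5.27 and -5.65 on average. Thus the 2 chemokine promoters printed above, both with consensus matches, belong to a gene that rose 1.33-fold and a gene that fell at least 5.34-fold.

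Of 12 measured survival genes 5 rose, 1 fell and 6 were not called, with a median of 0.11. Gadd45b, a stress-response gene that restrains JNK signalling, stood at -2.40, -2.51 and -2.67 with wild-type p65 and at -0.53, -0.74 and -0.65 with the N-fragment, a rise of 1.89 ± 0.11 (3.70-fold, adjusted p = 2.6e-09). Void lay with wild type (-2.43 to -2.28). Bcl2l1, the gene of anti-apoptotic Bcl-xL, rose by 1.09 ± 0.24 (2.13-fold, adjusted p = 0.0024), and Bcl2, its relative, by 0.74 ± 0.18 (adjusted p = 0.0053). Traf2, an adaptor of the TNF receptors, fell by 0.25 ± 0.09 (adjusted p = 0.044), a call that leaving out any array other than N-fragment 1 ended (adjusted p = 0.0656 to 0.151). Mcl1, Cflar, Xiap, Sod2, Ier3 and Traf1 were not called (-0.88 to 0.19).

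The remaining risers, Birc3 and Birc2, encode the cellular inhibitors of apoptosis c-IAP2 and c-IAP1, ubiquitin ligases of TNF signalling. Birc3 was above background on no wild-type or void array and on all N-fragment arrays (-3.97, -4.74 and -4.26), at least 3.14-fold higher (adjusted p = 9.9e-05). Birc2 stood at -2.15, -2.23 and -2.13 with wild-type p65 and at -0.59, -0.70 and -0.64 with the N-fragment, a rise of 1.53 ± 0.12 (adjusted p = 8.5e-08). Both genes sit side by side on chromosome 9, and their neighbours, which no list holds, rose by like amounts: Tmem123 by 1.88 ± 0.06 and Yap1 by 1.56 ± 0.08. Tmem123 stood at 0.21, 0.24 and 0.36 with wild-type p65, at 2.18, 2.15 and 2.12 with the N-fragment and at 0.15 to 0.22 with void. Yap1 stood at 3.91 to 4.00 with wild-type p65 and at 5.36 to 5.58 with the N-fragment. The next genes, Cfap300 (-0.52 ± 0.62) and Cep126 (-0.75 ± 0.32), were not called. Without the genes of chromosomes 9, 12 and 16 the survival list held 10 measured genes, of which 3 rose and 1 fell.

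**Figure D2:**
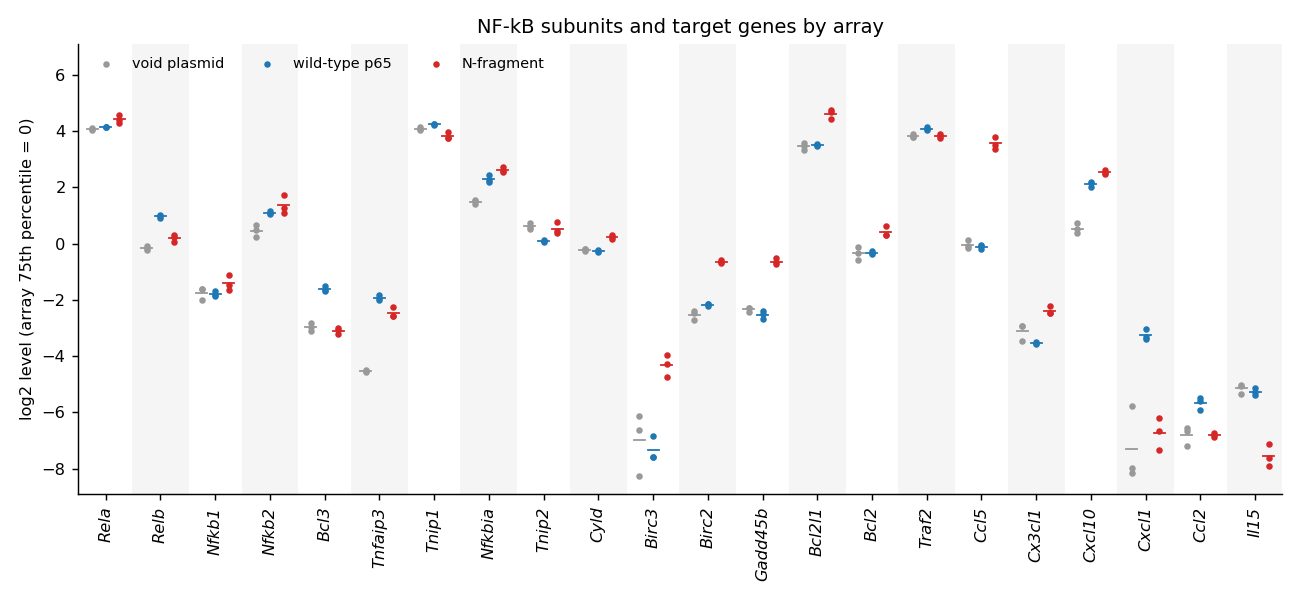
Log2 levels (vertical, array's 75th percentile = 0) of the NF-kB subunits and of the list members that changed, with 1 point per array and a bar at the mean of 3 arrays for void plasmid (grey), wild-type p65 (blue) and the N-fragment (red). Tnfaip3, Nfkbia and Cxcl10 lie above void in both p65 groups, Bcl3, Cxcl1 and Ccl2 lie apart from void with wild-type p65 and near it with the N-fragment, and Ccl5, Gadd45b, Birc2 and Birc3 lie apart with the N-fragment.

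Other NF-kB targets gave 0 rises and 2 falls among 12 measured genes in limma (median -0.29, 16.7% called), and 1 rise and 4 falls at an unadjusted p under 0.05. The falls were Psmb9 (at least 1.45-fold lower, adjusted p = 0.046, lost when any array was left out, 0.0564 to 0.146) and Cd74 (at least 1.17-fold lower, adjusted p = 0.0018). Receptor and IKK signalling genes gave 2 rises and 5 falls among 24 measured (median -0.03), 29.2% called beside 27.6% of all genes. Ripk1, the kinase at the TNF receptor, rose by 0.36 ± 0.08 (adjusted p = 0.0032). Tank, an adaptor that restrains TRAF signalling, fell by 0.54 ± 0.08 (adjusted p = 0.0001), and Tlr4, the endotoxin receptor, by 0.52 ± 0.08 (adjusted p = 0.00011). Both had ranges apart: Tlr4 stood at -0.23 to -0.18 with wild-type p65 and at -0.74 to -0.69 with the N-fragment.

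The neighbours of Birc2 and Birc3 led to a look at gene order, chosen after these values were seen. Of 13822 genes placed on a chromosome, 433 lay on chromosome 16, and 199 of them fell (46.0%) while 21 rose (4.85%). On chromosome 12, 166 of 490 genes rose (33.9%) and 36 fell (7.35%). On the 17 other chromosomes beside chromosome 9, with chromosome Y left out, 9.87 to 18.7% of genes rose and 12.2 to 17.5% fell. The median difference was -0.33 on chromosome 16 and 0.17 on chromosome 12, against -0.05 to 0.02 on those 17. Set against the wild-type mean, the chromosome 16 genes had medians of -0.38, -0.34 and -0.30 on the 3 N-fragment arrays, while the 3 wild-type arrays were at -0.007 to 0.014 and the void arrays at -0.007 to 0.067. On chromosome 12 the N-fragment arrays had medians of 0.18 to 0.20, the void arrays of -0.022 to 0.011. All 3 N-fragment arrays thus showed both shifts, and no void or wild-type array did. Void had shifts of its own against wild type, with medians of 0.17 to 0.20 on chromosome 5 and -0.18 to -0.12 on chromosome 19.

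Chromosome 9 as a whole had a median of -0.03, but stretches of it stood out. Among genes above background on all 6 arrays, 15 runs of at least 5 neighbours were called in a single direction, 3 of them on chromosome 9, 2 on chromosome 12 and 6 on chromosome 16. The longest was a run of 13 genes from Dcps to Ei24 on chromosome 9, with a median rise of 1.76 (0.29 to 3.51). Its genes had a median of 1.69 for the N-fragment minus void and of -0.01 for wild type minus void. Runs from Septin7 to Jam3 (6 genes, median 1.83) and from Med17 to Smco4 (5 genes, median 1.80) lay on the same chromosome. Farther along, Siae rose by 1.51 ± 0.08, Tbrg1 by 2.04 ± 0.11 and the olfactory receptor genes Olfr874 and Olfr875 rose at least 7.75-fold and 16.8-fold. Neither receptor gene was above background on a wild-type or void array, and both passed the filter through the 3 N-fragment arrays alone. The nearby receptor genes Olfr160, Olfr876, Olfr877, Olfr145, Olfr878 and Olfr881 were not measured. With both fragments together these genes differed. Tbrg1 stood at 5.14 to 5.55, between wild type (4.72 to 4.79) and the N-fragment (6.67 to 6.92). Ei24 stood at -0.31 to 0.18, around wild type (-0.19 to -0.14). Olfr874 and Olfr875 stood at -8.10 to -7.26 and -8.48 to -8.11, near wild type (-7.99 to -7.48 and -8.26 to -8.17). What sets these levels by position was not tested. Of the NF-kB genes above, Nfkbia lies on chromosome 12, Nfkbiz on chromosome 16, and Birc2 and Birc3 on chromosome 9. Left without chromosomes 9, 12 and 16, 1875 of 12126 genes rose and 1842 fell.

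**Figure D3:**
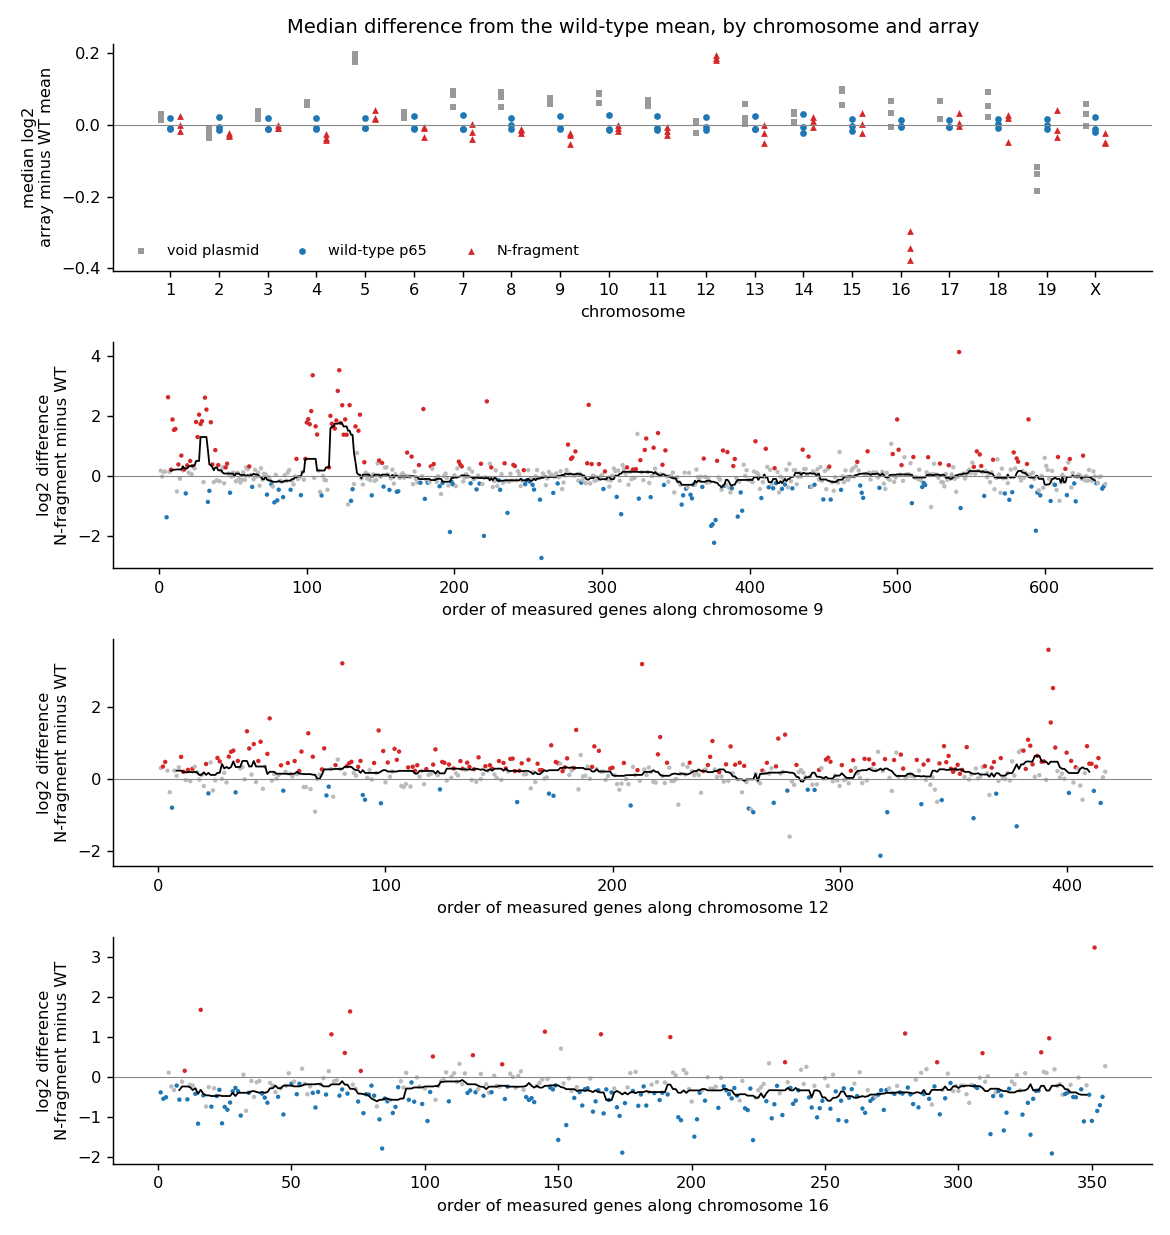
The top panel gives, for each chromosome, the median log2 difference of its genes from the wild-type mean on each void (grey squares), wild-type (blue circles) and N-fragment (red triangles) array; the 3 lower panels give each gene's log2 difference, N-fragment minus wild type, in gene order along chromosomes 9, 12 and 16 (red and blue called, grey not called), with a running median of 15 genes in black. The N-fragment arrays lie at -0.38 to -0.30 on chromosome 16 and at 0.18 to 0.20 on chromosome 12, and the running median along chromosome 9 rises above 0 in separate stretches.

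Several large single rises were of genes above background on no wild-type array. Ngfr, the low-affinity neurotrophin receptor and a neural crest marker, rose at least 32.2-fold (adjusted p = 3.2e-11). Fkbp10, a collagen-folding isomerase of the endoplasmic reticulum, rose at least 35.1-fold (adjusted p = 2.4e-09), with void between (-4.14 to -3.78). The focal adhesion adaptor gene Lims2 was measured on all arrays: it stood at -1.17, -0.94 and -0.44 with wild-type p65 and at 5.14, 4.98 and 4.93 with the N-fragment, a rise of 5.87 ± 0.25. S100a6, a calcium-binding protein, rose by 5.16 ± 0.17, from -2.73 to -2.63 up to 2.36 to 2.65, and void stood between (-1.79 to -1.11). The engulfment receptor gene Megf10 rose by 6.44 ± 0.49, above background on 2 of the wild-type arrays. The fetal albumin-like gene Afp was at least 22.0-fold higher, Ephx4 at least 8.93-fold and Olfr1499 at least 6.87-fold. Tagln2, an actin-binding protein, rose by 5.18 ± 1.05, but void (-1.15 to -0.76) stood beside the N-fragment (-0.69 to -0.63), and it was wild type (-6.56 to -5.36) that stood apart.

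The 12 largest falls were picked among genes above background on all wild-type arrays, and stood there at levels from -3.70 (Vldlr) to 4.45 (Lgals3). Dkk3, a secreted protein of the Dickkopf family, stood at 1.91, 1.85 and 1.65 with wild-type p65 and at 1.59 to 2.03 with void, and was above background on no N-fragment array, a drop of at least 178-fold (adjusted p = 1.0e-10). The galectin-3 gene Lgals3 stood at 4.43, 4.41 and 4.45 with wild-type p65 and at -2.48, -2.36 and -2.18 with the N-fragment, so it fell by 6.77 ± 1.00 on the log2 scale (adjusted p = 8.9e-05). Foxr2, a forkhead factor gene, fell by 6.24 ± 0.53 on the log2 scale. The torsin-family ATPase gene Tor4a was at least 49.6-fold lower, the potassium channel gene Kcnj13 at least 28.2-fold lower and Sytl4, a granule-docking protein, at least 13.4-fold lower. Capn6, an atypical calpain, differed in kind: it was above background on no void or N-fragment array, stood at -1.40 to -1.21 with wild-type p65 and was at least 20.8-fold lower with the N-fragment.

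Tvp23a, C1qtnf5, Car2 (carbonic anhydrase) and the lipoprotein receptor gene Vldlr were at least 8.47-, 4.88-, 4.90- and 4.83-fold lower. Casp4, which encodes the inflammatory caspase-11, fell by 4.34 ± 0.97, from -1.23 to -0.95 down to -5.72 to -5.08, with 1 N-fragment array above background. Its neighbour on chromosome 9, Casp1, the caspase that processes interleukin-1, rose by 2.62 ± 0.49, from -5.34 to -4.11 up to -2.35 to -2.20. Void lay at -4.53 to -3.97 for Casp4 and at -6.41 to -5.63 for Casp1, below wild type for both genes. Several of these errors are wide because the 5 arrays with both fragments, which share the fit, spread widely.

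**Figure D4:**
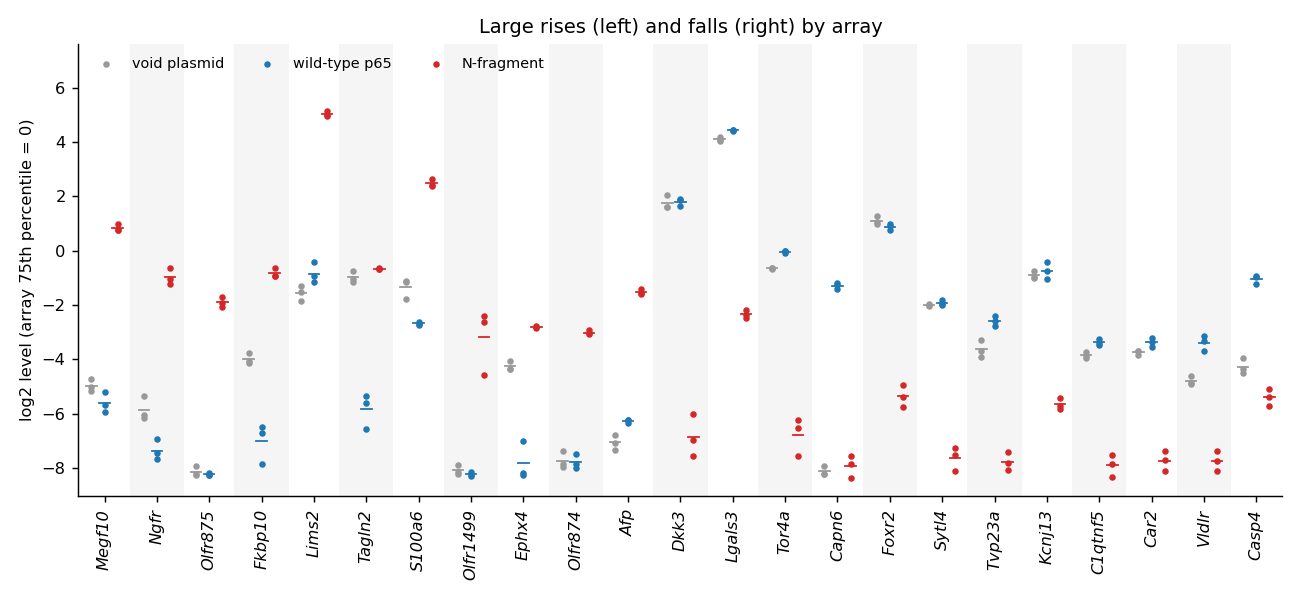
Log2 levels (vertical, array's 75th percentile = 0) of genes with large rises (left) and the 12 largest falls (right), with 1 point per array and a bar at the mean of 3 arrays for void plasmid (grey), wild-type p65 (blue) and the N-fragment (red). Void and wild type lie more than 2 units apart for Fkbp10, Tagln2, Ephx4, Capn6 and Casp4.

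Genes of the integrated stress response were lower with the N-fragment than with wild-type p65. This pathway slows translation under stress and, through the factor ATF4, turns on amino acid synthesis and transport. Of 23 measured members 15 fell and 3 rose (median -0.60), and leaving out any array left 14 or 15 falls. Chac1, which degrades glutathione, stood at 3.34, 3.14 and 2.91 with wild-type p65, at 0.68, 0.70 and 0.59 with the N-fragment and at 1.38 to 1.44 with void, and it fell by 2.47 ± 0.21 (5.55-fold, adjusted p = 3.0e-07). Nupr1, a stress-induced chromatin protein, stood at 1.32, 0.94 and 0.83 with wild-type p65 and at -2.53, -2.40 and -1.05 with the N-fragment, and it fell by 3.02 ± 0.45 (adjusted p = 8.9e-05). The groups did not overlap, although N-fragment 3 was the nearest to void (-0.85 to -0.72). Atf4 itself fell by 0.45, the asparagine synthetase gene Asns by 0.60 and the serine synthesis genes Psat1 and Phgdh by 0.51 and 0.32, values chosen after they were seen, as are those of Trib3 (-2.35) and the mitochondrial enzyme gene Pck2 (-1.71). The 3 that rose, Cebpb, Ppp1r15a and Slc7a5, did so by 0.23 to 0.36, and none of them kept its call under every leave-one-out fit.

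The element bound by C/EBP-ATF dimers (TGATGNAA, both strands) lay in the windows of 8 of 22 members with a window, against 318 of 11034 tested genes and 3.97% of all windows. Of these 8 members 6 fell (Trib3, Chac1, Asns, Pck2, Nupr1, Vldlr) and 2 were not called (Atf3, Slc7a11), while 9 members that fell held no match in this window. The 250 bases before the starts of Chac1 (chr2:119350992-119351241, plus strand, GRCm38.p6) and Nupr1 (chr7:126625471-126625720, minus strand) are shown as the largest falls with a match among members above background on all 6 arrays, the match in capitals.
Chac1: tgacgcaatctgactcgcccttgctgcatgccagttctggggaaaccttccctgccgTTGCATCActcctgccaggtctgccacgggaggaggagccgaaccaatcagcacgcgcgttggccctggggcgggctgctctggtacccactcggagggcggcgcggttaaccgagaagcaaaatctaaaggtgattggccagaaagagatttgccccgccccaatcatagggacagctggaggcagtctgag
Nupr1: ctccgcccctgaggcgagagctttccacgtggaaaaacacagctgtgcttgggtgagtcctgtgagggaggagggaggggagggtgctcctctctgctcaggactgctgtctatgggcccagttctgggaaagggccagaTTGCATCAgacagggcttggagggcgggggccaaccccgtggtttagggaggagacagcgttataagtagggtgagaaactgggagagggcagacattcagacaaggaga

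The cytosolic aminoacyl-tRNA synthetases, many of them ATF4 targets that charge tRNAs, gave 7 falls and 2 rises among 20 (median -0.11), and 1 rise when any array other than wild type 2 was left out. Cars (cysteine) fell by 0.72 ± 0.14, Yars (tyrosine) by 0.63 ± 0.10 and Nars (asparagine) by 0.50 ± 0.10. Chaperones of the endoplasmic reticulum and XBP1 targets gave 9 falls and 0 rises among 19 in limma (median -0.24), and 13 falls and 0 rises at an unadjusted p under 0.05. Herpud1, a component of the degradation machinery there, fell by 1.17 ± 0.12 (adjusted p = 3.0e-06), and Sdf2l1 by 1.06 ± 0.22 (adjusted p = 0.0014). Of the 19, 7 lie on chromosomes 9, 12 or 16, Sdf2l1 on chromosome 16, and 6 of the other 12 fell.

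Cholesterol and fatty acid synthesis genes were mostly lower with the N-fragment. Of 28 measured members 19 fell and 2 rose (median -0.58), and leaving out any array left 17 to 19 falls. Scd1, which desaturates fatty acids, stood at 1.29, 1.20 and 1.38 with wild-type p65 and at 0.17, 0.08 and 0.02 with the N-fragment, and it fell by 1.20 ± 0.10 (adjusted p = 3.4e-07). Fdps, which makes farnesyl pyrophosphate, fell by 1.04 ± 0.12, and Dhcr7, which makes cholesterol from its last precursor, by 1.01 ± 0.20. Differences over the list ran from -1.20 to 2.75. Of the 2 that rose, Hsd17b7, a sterol ketone reductase, did so by 0.48 ± 0.11 (adjusted p = 0.005). The sterol regulatory element (TCACNCCAC) matched in 1 of 18 members with a window, against 157 of 11034 tested genes and 1.24% of all windows.

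Glucose metabolism moved both ways. Of 20 measured glycolysis and glucose uptake genes 8 fell and 2 rose (median -0.10), and 5 fell without N-fragment 3 or without wild type 3. Aldoc, the brain-type aldolase, stood at 3.76, 3.69 and 3.51 with wild-type p65 and at 1.20, 1.21 and 1.08 with the N-fragment, and it fell by 2.49 ± 0.22 (5.62-fold). Pdk1, a pyruvate dehydrogenase kinase, fell by 1.77 ± 0.10. Hk1, a hexokinase, rose by 1.25 ± 0.21, and Pfkfb3, which stimulates phosphofructokinase, by 0.90 ± 0.05, while its relative Pfkfb4 fell by 1.07 ± 0.14. Of 14 measured hypoxia-induced regulators 5 fell and 1 rose (median -0.29), the rise being lost without N-fragment 2, N-fragment 3, wild type 2 or wild type 3. The mitophagy gene Bnip3 fell by 1.42 ± 0.14, the angiogenic factor gene Vegfa by 1.23 ± 0.14 and Ddit4, which restrains mTORC1, by 1.06 ± 0.09.

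Mesenchymal and TGF-beta response genes were higher with the N-fragment. Of 21 measured members 16 rose and 1 fell (median 1.26), and leaving out any array left 14 to 16 rises. Fn1, the gene of fibronectin, stood at -0.11, -0.17 and -0.09 with wild-type p65 and at 3.33, 3.08 and 3.02 with the N-fragment, a rise of 3.27 ± 0.43 (9.64-fold, adjusted p = 3.1e-05). Void was at 0.20 to 0.24. Axl, a receptor kinase of the invasive melanoma state, rose by 3.20 ± 0.31, from -2.92 to -2.53 up to 0.25 to 0.63. The member that fell, Tgfb1, encodes the ligand itself; its fall of 1.48 ± 0.50 (adjusted p = 0.0371) was kept without N-fragment 1 and lost without any other single array (0.0795 to 0.104). Of the 21 members 17 lie on other chromosomes than 9, 12 and 16, and 12 of these rose.

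Matrix and adhesion genes followed in part. Of 18 measured collagens, laminins and matrix enzymes 8 rose and 2 fell (median 0.27). Col1a1, the fibrillar collagen I chain, rose by 4.00 ± 0.78 (16.0-fold, adjusted p = 0.001), Lamb1, a laminin chain, by 3.20 ± 0.49 and Col5a1 by 1.63 ± 0.11. The basement membrane collagen gene Col4a1 fell by 0.58 ± 0.13 and the collagen lysyl hydroxylase gene Plod2 by 0.41 ± 0.10. Of 21 integrin and focal adhesion genes 10 rose and 0 fell in limma (median 0.40), 12 and 1 at an unadjusted p under 0.05; Itgb5 rose by 1.00 ± 0.14 and the actin cross-linker gene Flna by 0.90 ± 0.11, besides Lims2.

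The fibroblast marker list was read beside them. Of 9 markers 5 were measured, none of them above background on all 20 arrays by its brightest probe. Col1a1, Postn (at least 5.09-fold) and Pdgfra (1.40 ± 0.29) rose, and Fbln1, missing on N-fragment 1 as an outlier spot, fell by 1.61 ± 0.16. With only probes above background on all 20 arrays, 1 marker was tested, and it was called lower (-1.32). Dcn, Lum, Pdgfrb and Col3a1 were not measured. The summed linear level of the measured markers, in units of the array's 75th percentile, was 0.605 to 2.84 with the N-fragment, lowest on N-fragment 1, where Fbln1 is missing, and 6.18 to 6.78 with wild-type p65, mostly Fbln1. The part of other cells in these results was not tested, and in bulk RNA fewer cells of a type and less RNA per cell cannot be told apart.

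Immediate early genes, which growth factor signals switch on within minutes, gave 9 rises and 0 falls among 15 in limma (median 0.93), 11 and 0 at an unadjusted p under 0.05. Egr1 rose by 2.09 ± 0.57, from -5.25 to -4.97 up to -3.22 to -2.86, with void lower still (-7.49 to -7.15). Myc, the growth regulator, stood at 0.31, 0.36 and 0.53 with wild-type p65 and at 1.70, 1.67 and 1.71 with the N-fragment, a rise of 1.29 ± 0.21 (2.44-fold, adjusted p = 0.00021), and Klf2 rose by 1.34 ± 0.22. Of 10 measured ERK output and feedback genes 6 rose and 1 fell (median 0.40). The ETS factor genes Etv4 and Etv5 rose by 2.39 ± 0.22 and 1.14 ± 0.29 and the ERK phosphatase gene Dusp6 by 0.64 ± 0.06, while Phlda1 fell by 0.41 ± 0.09. Etv5 lies on chromosome 16, where the median was -0.33. STAT5, which Bcr-Abl activates, has targets of which 8 were measured, 37.5% of them called beside 27.6% of all genes. Of these 1 rose (Pim3, a survival kinase, 0.93 ± 0.13) and 2 fell (Socs3, 0.68 ± 0.05, and Socs2, 0.46 ± 0.08, feedback inhibitors of cytokine receptors).

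Tubulin genes were higher with the N-fragment, 9 of 13 with 0 falls in limma (median 0.44), 10 with 0 at an unadjusted p under 0.05. Tubb2b, a neuronal beta-tubulin, rose in steps over the groups: -5.96 to -5.15 with void, -1.86, -2.02 and -2.10 with wild-type p65, and 0.58, 0.61 and 0.58 with the N-fragment (2.59 ± 0.21, 6.00-fold, adjusted p = 1.7e-07). Tubb2a rose by 1.55 ± 0.29. These isotypes are close in sequence, and cross-hybridisation of their probes was not tested.

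Of 21 mitosis and spindle genes 14 rose and 0 fell in limma (median 0.24), 16 and 0 at an unadjusted p under 0.05, but 8 rose without wild type 1, 9 without wild type 2, 5 on unscaled values and 7 with normexp and quantile normalization together. Cenpe, a kinetochore motor, rose by 0.64 ± 0.11, Ube2c, a ubiquitin-conjugating enzyme of mitotic exit, by 0.58 ± 0.09 and Top2a, topoisomerase II alpha, by 0.56 ± 0.12. Of 23 replication and nucleotide genes 6 rose and 2 fell (median 0.14), with 1 fall without N-fragment 2, N-fragment 3, wild type 2 or wild type 3. The calls were 34.8% of them, beside 27.6% of all genes. The ribonucleotide reductase gene Rrm2 (chromosome 12) rose by 0.76 ± 0.09, E2f1 by 0.51 ± 0.11 and the helicase gene Mcm3 by 0.45 ± 0.06. Of 10 measured G1 regulators 2 rose and 4 fell; without N-fragment 1, N-fragment 2, wild type 1 or wild type 2, 1 rose. Ccnd1, cyclin D1, stood at 3.04, 3.00 and 3.07 with wild-type p65 and at 3.77, 3.74 and 3.75 with the N-fragment (0.71 ± 0.09), while Ccnd3, cyclin D3, fell by 0.50 ± 0.06. The CDK inhibitor genes Cdkn1b (p27) and Cdkn2c (p18) fell by 0.70 ± 0.09 and 0.57 ± 0.10.

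Targets of p53 moved both ways, 7 up and 7 down of 27 measured (median -0.06). Ei24, an apoptosis-linked p53 target, rose by 1.37 ± 0.11, and it lies in the run on chromosome 9 named above. Plk2, a polo-like kinase, rose by 1.09 ± 0.24. Perp, a desmosomal p53 effector, fell at least 3.46-fold (adjusted p = 5.3e-06), and the stress gene Sesn2 and the autophagy gene Trp53inp1 fell by 0.96 ± 0.08 each. Cdkn1a (p21) differed by 0.49 ± 0.17 (adjusted p = 0.0395), but its probes disagree, and their mean gave -0.04 (adjusted p = 0.864). The call was also lost with slide as a block (0.39, adjusted p = 0.0599) and without any single array other than N-fragment 3 (0.0561 to 0.178). Of 17 measured BCL2-family and caspase genes 6 fell and 1, Casp1, rose; besides Casp4, Bnip3 and the pro-apoptotic gene Bok (1.38 ± 0.13) fell.

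NRF2 targets, the oxidative stress defence, gave 7 rises and 3 falls among 21 measured (median 0.09), and these counts were the same whichever array was left out. Srxn1, which repairs oxidised peroxiredoxins, stood at 3.85, 3.81 and 3.68 with wild-type p65 and at 5.09, 4.97 and 4.84 with the N-fragment (1.19 ± 0.09, 2.28-fold, adjusted p = 1.1e-07). G6pdx, which makes NADPH, rose by 0.98 ± 0.11. Nqo1, a quinone reductase, rose by 0.93 ± 0.26, from -3.50 to -3.37 up to -2.56 to -2.36, and void was at -8.18 to -7.92, so both p65 groups stood far from it. Ephx1, microsomal epoxide hydrolase, and Gstm1, a glutathione transferase, fell by 0.94 ± 0.11 and 0.62 ± 0.12.

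Interferon-stimulated genes split, 7 up and 5 down of 29 measured (median -0.001), with 3 down without N-fragment 3 or wild type 1. The calls were 41.4% of them, beside 27.6% of all genes. Oasl1, an antiviral regulator of translation, stood at -4.63, -5.12 and -4.72 with wild-type p65 and at -1.40, -1.49 and -1.54 with the N-fragment (3.35 ± 0.25, 10.2-fold, adjusted p = 6.6e-08). Ifit1, which binds uncapped viral RNA, rose by 2.21 ± 0.14 and the ubiquitin-like gene Isg15 by 1.24 ± 0.27. Oas2, an oligoadenylate synthetase, fell at least 1.94-fold (adjusted p = 0.007). MHC class I presentation genes gave 5 falls and 0 rises among 11 measured in limma (median -0.93), the same at an unadjusted p under 0.05, but leaving out any array left 1 to 3 falls, and probes above background on all arrays gave a median of 0.02. The class I heavy chain genes H2-K1 (0.15) and H2-D1 (0.43) and B2m (-0.15) were not called.

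The labelled line was checked against its lineage. All 12 melanocyte markers were measured and above background on all 20 arrays, and their summed level was 1110 to 1290 with the N-fragment and 1130 to 1190 with wild-type p65. Of 20 melanocyte lineage and pigment genes 4 rose and 6 fell (median 0.01). Mitf, the master factor of melanocytes, stood at 5.66, 5.59 and 5.64 with wild-type p65 and at 6.11, 6.13 and 6.20 with the N-fragment (0.51 ± 0.08, adjusted p = 8.5e-05). Its target Tyr, tyrosinase, fell by 0.84 ± 0.07, from 3.40 to 3.57 down to 2.52 to 2.69. The receptor genes Kit and Mc1r rose by 1.52 ± 0.33 and 0.52 ± 0.08. Only 3 of 15 haematopoietic, 4 of 10 macrophage and 3 of 9 epithelial markers passed the filter, with summed levels of 0.598 to 0.643 against 0.679 to 0.769, 1.99 to 2.46 against 2.33 to 3.07 and 0.0622 to 0.0927 against 0.0944 to 0.104 (N-fragment against wild type). Ptprc, Adgre1 and Epcam were among those that did not pass. Of those that did, 1 macrophage marker rose (Cd68, by 1.18) and 1 fell, 1 haematopoietic marker fell, and 0 epithelial markers were called. The haematopoietic fall was lost without any single array other than wild type 3. Csf1r, the receptor of macrophage growth factor, also passed and was not called, at -1.24 to -0.42 with the N-fragment and -0.72 to -0.29 with wild-type p65.

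Of 5 measured galectins Lgals1 rose by 0.76 ± 0.14, Lgals3 and Lgals8 (0.56 ± 0.07) fell. Of 28 cytosolic ribosomal protein genes 3 rose and 0 fell in limma (median 0.14), 8 and 0 at an unadjusted p under 0.05. By adjusted p, 1 rose without N-fragment 1, N-fragment 2 or wild type 2, 6 rose without N-fragment 3, and 0 rose after quantile normalization or on unscaled values.

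**Figure D5:**
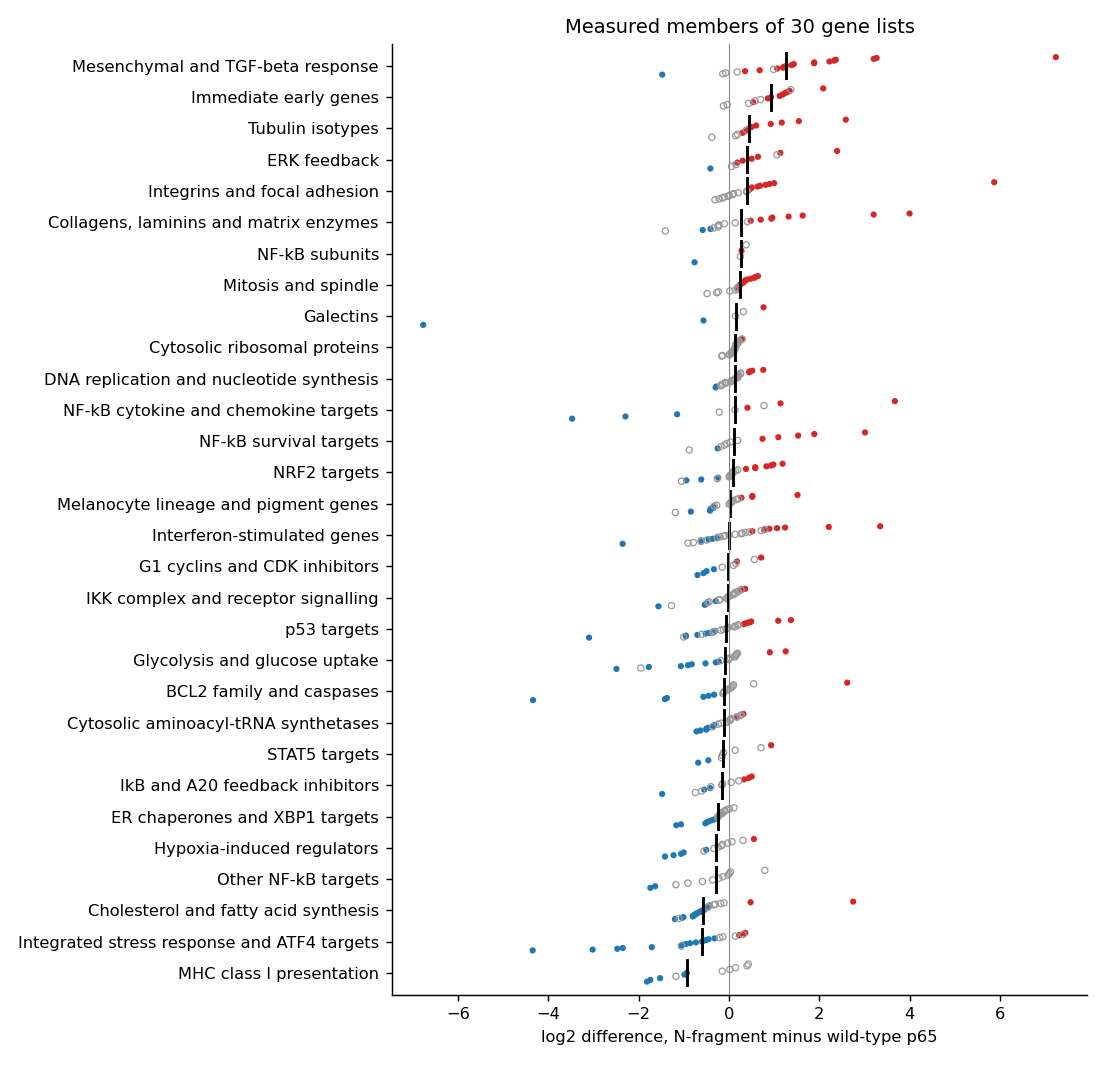
Each point is a measured member of a gene list, placed by its log2 difference, N-fragment minus wild-type p65; red and blue points were called higher and lower, open points were not called, and the black bar is the list's median. The medians run from -0.93 (MHC class I presentation) to 1.26 (mesenchymal and TGF-beta response), with the integrated stress response at -0.60 and cholesterol synthesis at -0.58.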

How the data were processed

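Total RNA of a transfected B16 Bcr-Abl+ line was hybridised to 20 1-colour arrays in 6 groups. Each deposited intensity is a background-subtracted signal, per the file headers, which name Feature Extraction 10.7.3.1 from Agilent. The deposited series table equals them on every feature, so its values are not scaled between arrays. Here log2 intensity was used, less its 75th percentile on that array (control spots excluded), with outlier-flagged spots left out and probes above background on at least 3 of 20 arrays kept (23432 of 39429). Of all probes 28663 (72.7%) were named through RefSeq accessions (GRCm38.p6), and 13823 of the 18738 genes tested have symbols. The brightest probe stood for a gene. limma 3.58.1 (R 4.3.3) was fitted on all 20 arrays, with Benjamini-Hochberg adjustment. A group without any array above background gives only a bound ("at least"), taken against the arrays' background floor; its adjusted p is that of the fitted difference.

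Genes named are Rela, the 12 rises and 12 falls of greatest size, and as many as 3 called members of a list each way. Every measured member of 4 NF-kB lists was named too, and others were chosen after their values were seen. The 12 rises and 12 falls were called, with groups not overlapping and the brighter group above background on all 3 arrays. Some genes that this rule names are not reported here. The comparison, its gene lists and tests were chosen with earlier results of these data known. Lists carry counts and medians, with no set test. Gene order along chromosomes is that of RefSeq. Background clauses on genes are general knowledge. The fit was tested on simulated data. Alternatives were quantile normalization, normexp (offset 50) with quantile normalization, no scaling, other filters, the mean of probes, fewer groups, another variance model, slide as a block and each array left out.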

Additional observations from a re-analysis of the deposited data

How the results depend on the processing

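The count of calls stayed within 1.5 times 5170 under every alternative run, from 3978 on unscaled values to 6362 without the arrays with both fragments. Leaving out each array in turn gave 4091 to 4574 calls, 987 to 1068 of them at least 2-fold. The count of at least 2-fold changes fell from 1104 to 396 with normexp background correction and quantile normalization together (normexp on median signals, chosen after the data were seen because the files hold no mean signal) and to 653 for probes above background on all 20 arrays, where 14814 genes were tested. Rela lost its call on unscaled values (0.22, adjusted p = 0.137) and in a fit of only the N-fragment and wild-type arrays (0.276, adjusted p = 0.0692), and over arrays left out it ranged from 0.197 to 0.342. Cdkn1a reversed, to -0.04, with the mean of its probes; the cause was not tested.

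Slides 1 and 4 each held an array of both groups. Of the 5170 calls 5162 and 5154 had the same sign within them, arrays that the fit itself used, and slide as a block, which lost the calls of Nfkbia and Cdkn1a among others, gave 6269 calls. Replicates could not be paired by number, because array titles number the samples 1 after another across groups, with no replicate numbers shared. The number of arrays (3 a group) limits the precision, and dim genes have only bounds.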
